A study of Mus musculus with 2 samples.

Results

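The secreted ligands, receptors and antagonists of the Wnt system were examined in liver sinusoidal endothelial cells (LSEC), which form the porous capillary wall of the liver. Members were the non-control probes whose gene name began with Wnt, Fzd, Rspo, Sfrp or Dkk followed by a digit, or was Lrp5, Lrp6, Wif1, Frzb, Axin2, Lgr4 or Lgr5. The rule found 56 probes of 48 genes, out of 39429 probes for 31894 genes or unnamed transcripts. The arrays compared LSEC of 1 ob/ob mouse, which carries a mutant leptin gene and becomes obese, with LSEC of 1 wild-type (WT) mouse. Both mice were male and 8 weeks old, and both livers were digested with collagenase and the cells kept overnight in serum-containing medium before RNA was taken. Each RNA was labelled with Cy3 and hybridised to 1 one-colour Agilent array, so neither genotype has a replicate, no test was possible, and every difference compares 2 arrays, on which genotype, mouse and preparation cannot be told apart. Both arrays sat on the same slide and were scanned together.

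Wnt proteins are lipid-modified ligands that bind Frizzled receptors. With the co-receptors Lrp5 or Lrp6 they stabilise beta-catenin, and through other partners they act on cell polarity and calcium. R-spondins bind Lgr4 and Lgr5 and spare Frizzled receptors from removal by the ubiquitin ligases Znrf3 and Rnf43, while Sfrp proteins, Frzb and Wif1 bind Wnts and Dkk1 blocks Lrp5 and Lrp6. In mouse liver, endothelial cells around the central vein supply Wnt2, Wnt9b and Rspo3, which maintain the metabolic programme of the neighbouring hepatocytes.

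Signals below are scaled so that the 75th percentile of each array is 1000, and differences are ob/ob minus WT on the log2 scale. The unscaled 75th percentile was 1430 on the ob/ob array and 989 on the WT array, and 64.8% and 58.6% of non-control spots were well above background. The lowest scaled signal well above background was 8.18 on the ob/ob and 12.5 on the WT array, so a dim gene could be seen further down on the ob/ob array. Leptin itself was above background on neither array and checks nothing about the genotype. All 13 sinusoidal endothelial markers were above background on both arrays, 0 of them at least 2-fold different, with a median difference of -0.27. Each member probe has 1 spot per array, so the only error of a difference is the SD that the scanner's error model gives, between 0.20 and 0.40 for the members measured on both arrays. The SD among different probes of a gene was 0.33, taken over 3688 genes, and neither value holds the spread between mice.

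Of the 48 member genes, 22 were above background in both genotypes, 4 in ob/ob alone, 0 in WT alone and 22 in neither. Across the array 56.9% of genes were measured in both, 6.8% in ob/ob alone, 0.856% in WT alone and 35.4% in neither. Among the 22 measured members, 4 were at least 2-fold higher in ob/ob LSEC, the antagonist Frzb, the receptors Fzd1 and Fzd7 and the ligand Wnt11, which is 18.2% where 5.83% of all measured genes were. The ligand Wnt7b was at least 2-fold lower, 1 of 22 or 4.55% where 2.29% of all measured genes were. At 1.5-fold, 6 members were higher and 2 lower, where 9.82% and 9.1% of all measured genes were, and at 3-fold 1 was higher and 0 lower, where 3.01% and 0.501% were. A stricter filter, at 4 times the lowest signal well above background, kept 15 members. Of these 1 was at least 2-fold higher, Fzd1, and 0 lower, where 647 and 285 of 15008 genes were. The other members called at 2-fold were too dim for that filter. The other 17 lay within 2-fold, and the median difference of the 22 was -0.02 beside -0.12 for all 18147 measured genes. Scaling on the array median moves every difference by -0.28 and gave 3 higher and 1 lower member, with 769 higher and 977 lower genes on the array in place of 1058 and 416. In bulk RNA, fewer cells of a type and less RNA per cell cannot be told apart.

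**Figure D1:**
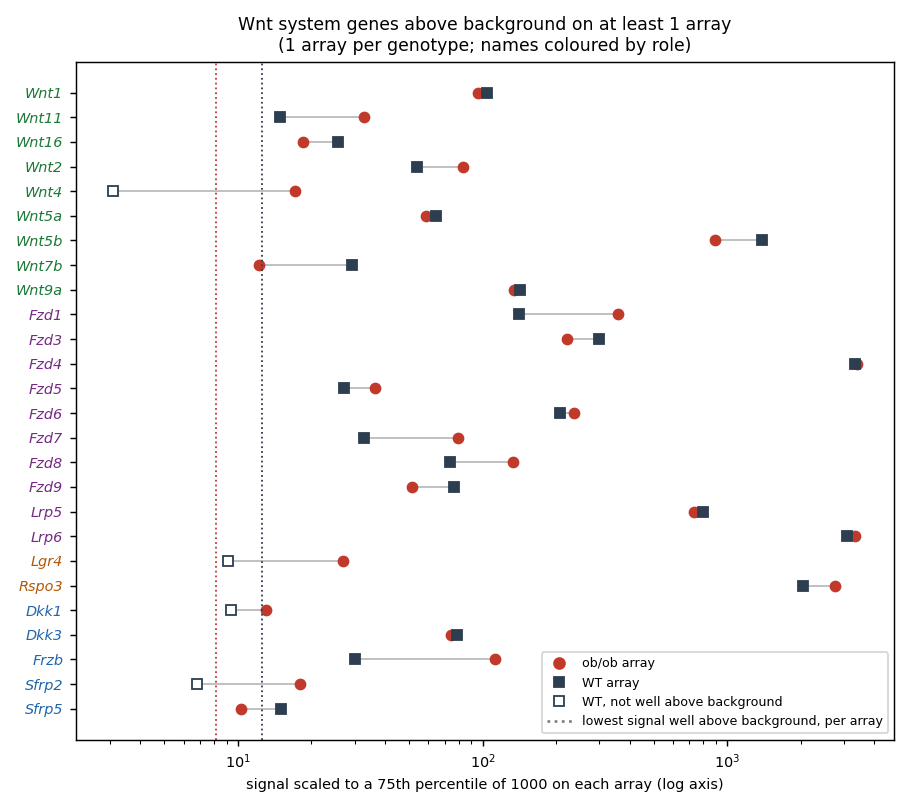
Signal of the 26 Wnt system genes above background on at least 1 array, scaled to a 75th percentile of 1000 on a log axis, with ob/ob as circles and WT as squares; names are coloured as Wnt ligands (green), receptors (purple), R-spondin axis (orange) and antagonists (blue). Frzb, Fzd1, Fzd7 and Wnt11 lie furthest to the right in ob/ob relative to WT among genes measured on both arrays, and open squares mark the 4 genes not well above background in WT.

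Among the 19 Wnt ligands, 8 were measured on both arrays, with differences from -1.25 to 1.14 and a median of -0.13. Wnt11, which signals mainly through polarity and calcium, had a signal of 32.9 in ob/ob and 14.9 in WT LSEC, a difference of 1.14 with an error-model SD of 0.35. Its WT signal was close to the lowest level well above background. The probe spans 106001985 to 106002045 of chromosome 7 (mm9, as for all probes). Wnt7b, a ligand known from lung development and from the barrier of brain vessels, had a signal of 12.2 in ob/ob and 29.2 in WT LSEC, a difference of -1.25 with an SD of 0.36. It is dim on both arrays, and its probe lies on chromosome 15 at 85366896 to 85366955.

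Wnt2, the angiocrine ligand of central vein and sinusoidal endothelium, had a signal of 83.2 in ob/ob and 54.1 in WT LSEC. The difference of 0.62 with an SD of 0.22 stayed within 2-fold (chromosome 6, 17938994 to 17939053). Wnt9b, the other ligand of the central vein, stayed near background in both genotypes, at 8.67 in ob/ob and 4.58 in WT LSEC. Wnt5b, a ligand of the beta-catenin-independent route, had a signal of 888 in ob/ob and 1390 in WT LSEC, a difference of -0.65 with an SD of 0.20 (chromosome 6, 119382550 to 119382609). Its relative Wnt5a differed by -0.15, with 58.5 in ob/ob and 64.7 in WT LSEC. These values put the angiocrine Wnt2 higher and Wnt5b lower in ob/ob LSEC, each by more than its error-model SD and by less than 2-fold.

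The remaining ligands measured on both arrays lay within 2-fold. Wnt9a, known from joint formation, had a signal of 134 in ob/ob and 142 in WT LSEC, a difference of -0.08. Wnt16, known for its part in bone, had a signal of 18.5 in ob/ob and 25.7 in WT LSEC by one probe, a difference of -0.47 with an SD of 0.32, while its other probe was at background on both arrays. Wnt1, the founding member of the family, had a signal of 95.8 in ob/ob and 104 in WT LSEC by one probe and was at background by the other, so its presence rests on 1 of 2 probes. Wnt4, which is needed for kidney and ovary development, was measured in ob/ob alone, at 17.1 in ob/ob and 3.09 in WT LSEC, and was at least 1.37-fold brighter in ob/ob. That bound leaves out the error-model SD of Wnt4, which was 1.45. The 10 ligands above background on neither array were Wnt2b, Wnt3, Wnt3a, Wnt6, Wnt7a, Wnt8a, Wnt8b, Wnt9b, Wnt10a and Wnt10b.

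Some Wnt genes are chromosomal neighbours. Among the members, 4 pairs were adjacent in the RefSeq order of protein-coding genes on GRCm38.p6. Wnt6 with Wnt10a on chromosome 1 and Wnt9b with Wnt3 on chromosome 11 had neither gene above background. In the pair of Wnt3a and Wnt9a on chromosome 11 and that of Wnt10b and Wnt1 on chromosome 15, 1 partner was measured on both arrays and the other on neither. No pair had both genes measured.

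Most receptors were measured in LSEC, and 2 of them were at least 2-fold higher in ob/ob. That is 20% of the 10 measured on both arrays, where 5.83% of all measured genes were. Of the 10 Frizzled genes and 2 LRP co-receptors, 10 were measured on both arrays and 2, Fzd2 and Fzd10, on neither. Of the 10 differences 7 were positive, but 4 with array-median scaling and 3 after normexp with 75th percentile scaling. Their median was 0.15 in the main processing, beside -0.12 for all 18147 measured genes. Fzd1, a Frizzled that can couple to beta-catenin, had a signal of 359 in ob/ob and 141 in WT LSEC. That is a difference of 1.35 with an SD of 0.21, or 2.55-fold (chromosome 5, 4754003 to 4754062). Fzd7, which is used widely in development and in stem cells, had a signal of 79.7 in ob/ob and 32.7 in WT LSEC, a difference of 1.29 with an SD of 0.25, or 2.44-fold (chromosome 1, 59543192 to 59543251). The second Fzd7 probe was at background on both arrays, with 1.73 in ob/ob and 2.64 in WT LSEC, so the call rests on 1 of 2 probes.

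To show what was hybridised, the first 30 of the 60 bases of both Fzd7 probes and both Lrp6 probes are given below, because these pairs read the same transcript at unlike levels. The Fzd7 probes lie at chr1:59543192-59543251 (measured) and chr1:59541367-59541426 (at background), on the plus strand of mm9. The Lrp6 probes lie at chr6:134400440-134400499 and chr6:134404723-134404782, on the minus strand.
Fzd7 probe measured on both arrays: aagggaaggtgaacttcaaagtgattctgg
Fzd7 probe at background: agccccgactttacagtcttcatgatcaag
Lrp6 brighter probe: caaaggaaacaggaaaagaaaggcatcact
Lrp6 dimmer probe: atcgagcgcacgtcacgggagcctcctcaa
Over all 60 bases, G and C made up 38.3% of the measured Fzd7 probe and 48.3% of the one at background, and 45.0% of the brighter and 55.0% of the dimmer Lrp6 probe. The Fzd5 pair went the other way, with 55.0% for the measured probe and 45.0% for the one at background. For Wnt1 the measured probe had 41.7% and the one at background 61.7%, and both Wnt16 probes had 45.0%.

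Fzd4, the receptor through which Norrin and Wnt act on vessels, had a signal of 3400 in ob/ob and 3320 in WT LSEC, a difference of 0.03 with an SD of 0.20. Lrp6, the main co-receptor for beta-catenin signalling, had 3330 in ob/ob and 3090 in WT LSEC by its brighter probe, a difference of 0.11. Its dimmer probe gave 132 in ob/ob and 90.3 in WT LSEC, a difference of 0.55 with an SD of 0.21, so the probes share the sign and differ in size. Lrp5, the related co-receptor that also serves vessel growth in the eye, had 734 in ob/ob and 796 in WT LSEC, a difference of -0.12. With array-median scaling Fzd4 was -0.25, Lrp5 -0.40 and Lrp6 by its brighter probe -0.17, so the signs of Fzd4 and Lrp6 depend on the scaling.

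Of the other Frizzled genes, Fzd8 came closest to 2-fold, with 133 in ob/ob and 73.7 in WT LSEC, a difference of 0.85 with an SD of 0.21. Fzd5, known from yolk sac vessels and gut in mouse, had 36.2 in ob/ob and 27.2 in WT LSEC by its measured probe, a difference of 0.41 with an SD of 0.25. Fzd6, a polarity receptor that orients hair, had 236 in ob/ob and 207 in WT LSEC, a difference of 0.19. Below 0 were Fzd3, an axon guidance receptor, and Fzd9. Fzd3 had 221 in ob/ob and 299 in WT LSEC, a difference of -0.44 with an SD of 0.20. Fzd9 had 51.6 in ob/ob and 76.8 in WT LSEC, a difference of -0.57 with an SD of 0.22.

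**Figure D2:**
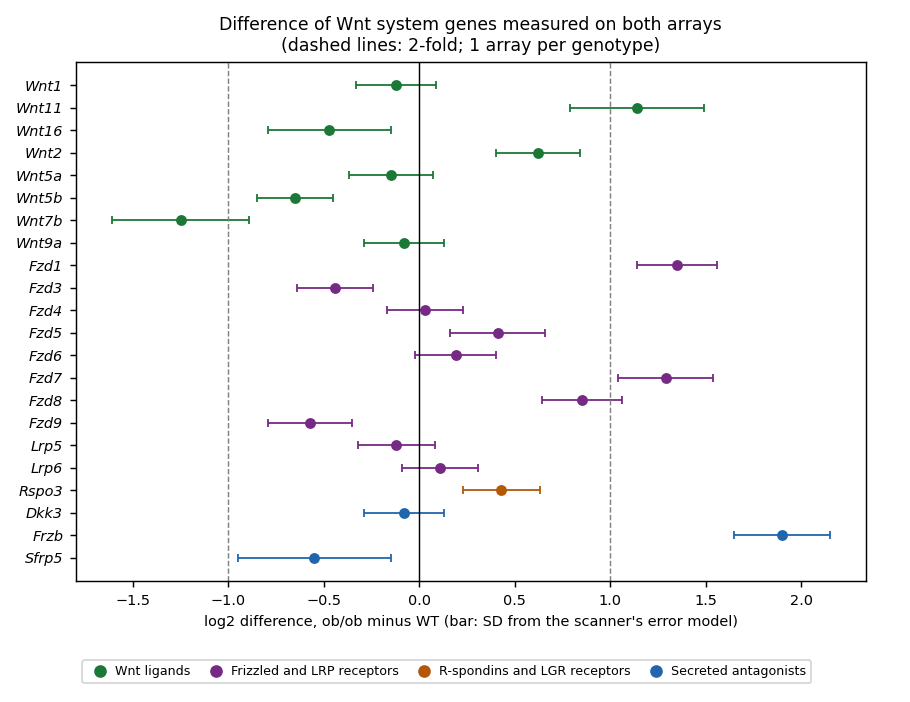
Log2 difference, ob/ob minus WT, of the 22 Wnt system genes measured on both arrays, coloured by role, with bars for the SD from the scanner's error model and dashed lines at 2-fold. Frzb (1.90), Fzd1 (1.35), Fzd7 (1.29) and Wnt11 (1.14) lie right of the upper line and Wnt7b (-1.25) left of the lower one, and the bars of Wnt11, Wnt7b and Fzd8 cross these lines.

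The R-spondin axis was represented by 1 ligand. Rspo3, the R-spondin of liver endothelium and a maintainer of liver zonation, had a signal of 2770 in ob/ob and 2050 in WT LSEC, a difference of 0.43 with an SD of 0.20 (chromosome 10, 29172930 to 29172989). It was higher in ob/ob and within 2-fold. Rspo1, Rspo2 and Rspo4 were above background on neither array. Of the receptors, Lgr4 was measured in ob/ob alone, at 27.0 in ob/ob and 9.11 in WT LSEC, and was at least 2.16-fold brighter in ob/ob (chromosome 2, 109853567 to 109853626). Lgr5, which marks stem cells and hepatocytes next to the central vein, was above background on neither array.

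Among the 10 secreted antagonists, 3 were measured in both genotypes, 2 in ob/ob alone and 5 in neither. Frzb, also known as Sfrp3, a decoy that shares the Wnt-binding domain of Frizzled receptors, had a signal of 112 in ob/ob and 30 in WT LSEC. Its difference of 1.90 with an SD of 0.25, or 3.73-fold, was the largest of the 22 measured members (chromosome 2, 80252582 to 80252641). Dkk3, a divergent Dickkopf, had 74.1 in ob/ob and 78.3 in WT LSEC, a difference of -0.08. Sfrp5, an adipokine that binds Wnt5a in mouse, had 10.3 in ob/ob and 15.0 in WT LSEC, a difference of -0.55 with an SD of 0.40 close to background. Sfrp2 was at least 1.44-fold and the Lrp5 and Lrp6 inhibitor Dkk1 at least 1.04-fold brighter in ob/ob, where alone they were measured. Sfrp2 had 18 in ob/ob and 6.79 in WT LSEC, and Dkk1 had 13.0 in ob/ob and 9.40 in WT LSEC. Sfrp1, Sfrp4, Dkk2, Dkk4 and Wif1 were above background on neither array.

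Axin2, the feedback gene that beta-catenin induces in most tissues, was above background on neither array by either of its 2 probes, with 6.26 in ob/ob and 9.07 in WT LSEC by the brighter one. A difference in it was therefore not detectable here.

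These calls depended on the background correction. With normexp correction and the 75th percentile, which adds a constant to every signal before scaling, Frzb was -0.33, Fzd7 -0.76 and Wnt11 -1.22 against positive values in the main processing, Fzd1 was 0.48, and 0 members were higher and 8 lower. Of all 18147 measured genes, 369 were higher and 3827 lower with that setting. With normexp and quantile normalization Frzb was 0.68, Fzd1 0.83, Fzd7 0.35, Wnt11 0.18 and Wnt7b -0.31, so 0 members passed 2-fold in either direction. Scaling on the array median and quantile normalization each left Wnt11 under 2-fold, at 0.86 and 0.87. Rspo3 kept a positive and Wnt5b a negative difference under all 12 alternatives, from 0.15 to 0.56 and from -0.93 to -0.53. They were not alone in this. Fzd1 stayed positive, from 0.48 to 1.46, and Wnt7b negative, from -1.81 to -0.31, where measured. Fzd3, Fzd9, Sfrp5, Wnt1 and Wnt5a stayed negative as well. Several of those alternatives could hardly move a member value. Wnt2 was positive except with normexp and the 75th percentile, where it was -0.83, and array-median scaling gave 0.34 and quantile normalization 0.39.

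**Figure D3:**
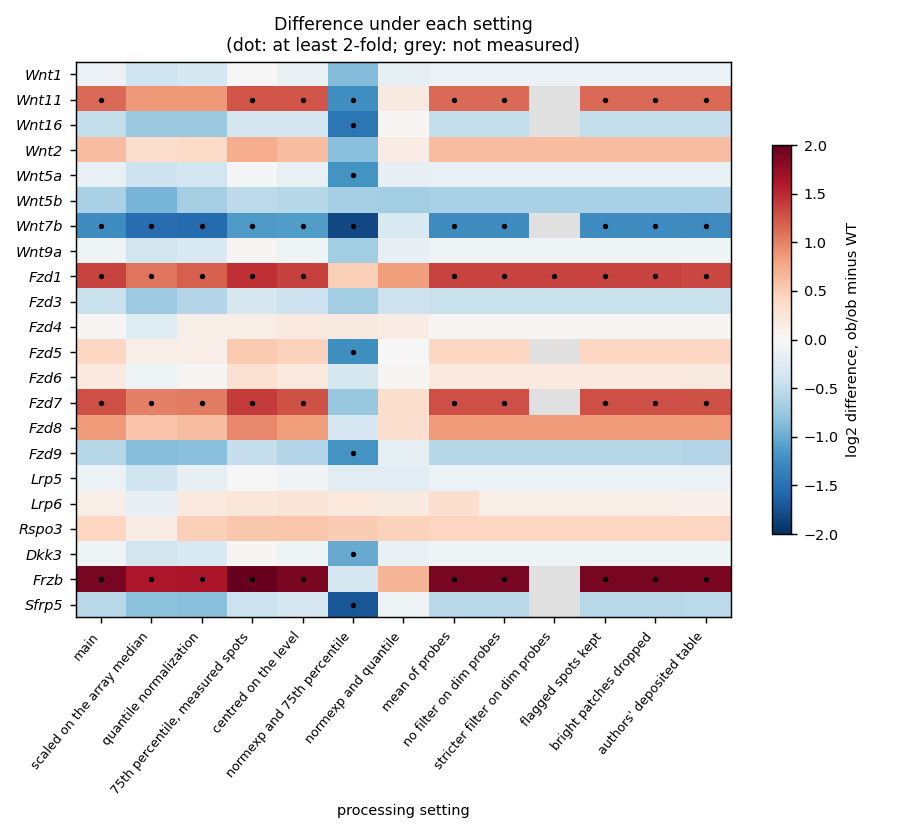
Log2 difference, ob/ob minus WT, of each of the 22 measured members (rows) under the main processing and 12 alternatives (columns), from blue (lower in ob/ob) to red (higher), with a dot at 2-fold or more and grey where the gene was not measured. Frzb, Fzd1 and Fzd7 carry dots in most columns, several of which could hardly move a member value, and none in the columns for normexp correction. The normexp and 75th percentile column is blue for most rows, with 8 genes at least 2-fold lower, as were 3827 of all 18147 measured genes.

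**Figure D4:**
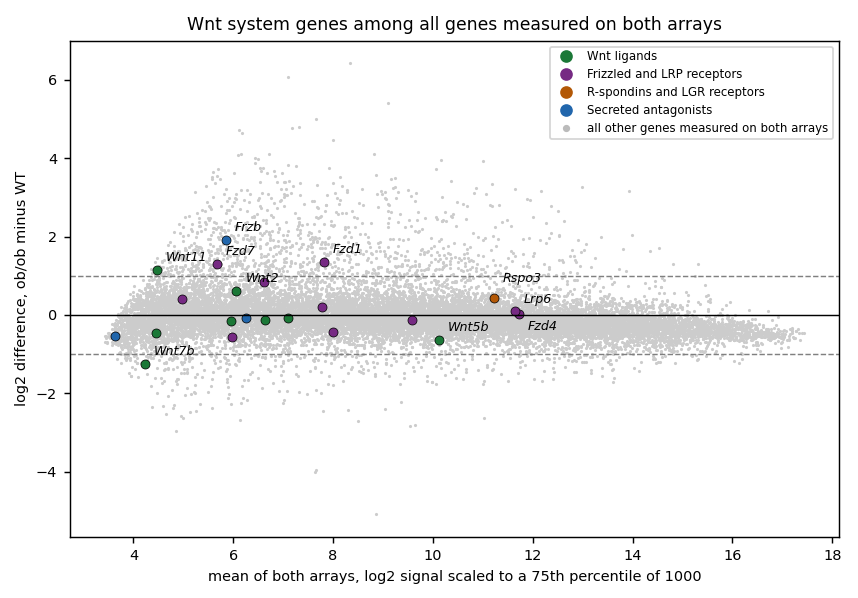
Log2 difference, ob/ob minus WT, against the mean log2 signal of both arrays for all 18147 genes measured on both (grey) and the 22 Wnt system members (coloured by role), with dashed lines at 2-fold. Wnt11, Wnt7b, Fzd7 and Frzb lie at the dim end, Fzd1 is brighter, and Rspo3, Fzd4, Lrp6 and Wnt5b lie further right, within 2-fold.

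The promoters of the 4 members that were at least 2-fold higher are printed to show whether they share the core recognised by TCF and LEF factors, the partners of beta-catenin on DNA. The letters CTTTG and their reverse complement CAAAG are in capitals, within the 250 bases before the gene start, taken from RefSeq on GRCm38.p6 and written 5′ to 3′ along the gene. The windows are chr2:80447397-80447646 for Frzb and chr5:4758217-4758466 for Fzd1, both on the minus strand, and chr1:59481897-59482146 for Fzd7 and chr7:98834862-98835111 for the first of 2 Wnt11 starts, both on the plus strand.
Frzb: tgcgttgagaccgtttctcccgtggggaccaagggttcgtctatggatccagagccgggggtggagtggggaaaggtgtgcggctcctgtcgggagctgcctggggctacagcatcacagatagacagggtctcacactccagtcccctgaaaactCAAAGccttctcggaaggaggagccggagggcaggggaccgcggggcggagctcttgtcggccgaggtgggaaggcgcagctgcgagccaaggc
Fzd1: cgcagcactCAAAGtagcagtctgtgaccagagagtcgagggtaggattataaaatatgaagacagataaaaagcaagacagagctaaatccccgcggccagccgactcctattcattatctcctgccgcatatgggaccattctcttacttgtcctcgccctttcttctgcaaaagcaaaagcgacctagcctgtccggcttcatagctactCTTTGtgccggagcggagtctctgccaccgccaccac
Fzd7: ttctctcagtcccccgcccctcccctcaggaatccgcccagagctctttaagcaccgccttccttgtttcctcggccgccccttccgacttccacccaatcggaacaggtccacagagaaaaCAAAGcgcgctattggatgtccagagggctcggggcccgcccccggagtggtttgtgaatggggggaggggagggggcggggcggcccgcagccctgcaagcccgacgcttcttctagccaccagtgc
Wnt11: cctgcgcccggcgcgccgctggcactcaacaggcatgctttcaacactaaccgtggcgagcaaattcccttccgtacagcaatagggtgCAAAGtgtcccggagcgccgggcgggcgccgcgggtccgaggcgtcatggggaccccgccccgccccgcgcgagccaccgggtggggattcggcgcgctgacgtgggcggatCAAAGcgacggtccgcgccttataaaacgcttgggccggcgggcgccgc
Frzb and Fzd7 each hold 1 match and Fzd1 and this Wnt11 start 2, while the other Wnt11 start and the promoter of Wnt2 hold 0. Of 27025 promoters 48.8% hold at least 1 match, and 13 of the 31 member genes with a promoter do, or 41.9%. The longer run CTTTGAT, on either strand, is in 1 of the 31, the printed Wnt11 start, and in 3.23% of all promoters. A match is a run of letters and not a bound site.

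Genes around the members were taken from lists chosen with earlier results of these data known. Of 33 genes for Wnt secretion, surface partners and extracellular modulators, 19 were measured on both arrays, 5 at least 2-fold higher and 1 lower, with a median of -0.00. Lrp4, a receptor of agrin and sclerostin, was 2.25 higher, with 112 in ob/ob and 23.6 in WT LSEC. Reck, the anchored protein that presents Wnt7 ligands to brain endothelium, was 1.73 higher, with 62.9 in ob/ob and 18.9 in WT LSEC. The Wnt-binding carboxypeptidase Cpz was 1.55, the Wnt-cleaving protease Trabd2b 1.51 and the glypican Gpc4 1.17 higher. Dkkl1, a Dickkopf-like protein of testis, was lower at -2.03, with 29.7 in ob/ob and 121 in WT LSEC. Among genes measured on 1 array, the glypican Gpc6 was at least 3.59-fold brighter in WT, and Gpc3 at least 1.16-fold and Kremen2, a Dickkopf receptor, at least 1.05-fold brighter in ob/ob. The bounds of Gpc3 and Kremen2 lie close to 1 and hold no error. The secretion factors Wls and Porcn, looked at after their values were seen, differed by -0.50 and -0.40.

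Inside the cell few genes of the pathway passed 2-fold, as was so across the array. Of 67 intracellular and polarity genes, 59 were measured on both arrays, 57 of them within 2-fold. Their median was -0.19, beside -0.12 for all measured genes. The exceptions were the polarity protein Prickle1 at -1.11, with 4020 in ob/ob and 8700 in WT LSEC, and the Dishevelled antagonist Dact1 at 1.11, with 51.6 in ob/ob and 24.0 in WT LSEC. The calcium-regulated factor Nfatc2 was at least 3.44-fold, the polarity cadherin Celsr3 at least 2.14-fold and the formin Daam2 at least 1.13-fold brighter in ob/ob, bounds that hold no error. Neither 2-fold call held with quantile normalization, which gave 0 higher and 0 lower, and array-median scaling gave 0 higher and 3 lower. Ctnnb1, beta-catenin itself, was chosen with its value known and differed by -0.17.

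Of 33 genes known as beta-catenin targets in various cell types, 22 were measured on both arrays, 4 at least 2-fold higher and 1 lower. Over all measured genes 5.83% were higher and 2.29% lower. The median of the 22 was 0.05. The growth factor Vegfa was 1.75, the hyaluronan receptor Cd44 1.43, the matricellular Ccn1 1.41 and Ccn4 1.05 higher, and the adhesion molecule Nrcam was lower at -1.17. Many of these genes answer to other pathways as well. The transcription factors Tbx3 and Sox9 were at least 1.66-fold and 1.55-fold brighter in ob/ob. Of 12 genes of pericentral endothelium 10 lay within 2-fold, the adhesion receptor Selp was 3.24 higher and the receptor component Ramp3 was -1.03, with a median of -0.31. The list had 0 lower genes with quantile normalization, with level centring and with the 75th percentile over spots above background on both arrays.

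Genes that mark hepatocyte zones were read in the same LSEC preparations. Of 21 pericentral hepatocyte genes, 7 were measured on both arrays, with a median of -0.10. The cytochrome Cyp2e1 was 2.83 higher, with 453 in ob/ob and 63.9 in WT LSEC. The receptor Ahr was -1.41, with 5700 in ob/ob and 15100 in WT LSEC. Beside it the hepatocyte marker Alb had 13800 in ob/ob and 1550 in WT LSEC. Which cells gave the Ahr signal was not tested. Of 15 periportal hepatocyte genes 7 were measured on both and 3 were at least 2-fold higher, Arg1 at 6.42, which macrophages express too, Fbp1 at 3.98 and Cyp2f2 at 3.62, with a median of 0.58. The mitochondrial dehydrogenase Aldh1b1, which is on both lists, was at least 12.3-fold brighter in ob/ob. Lect2 was brighter by at least 3.49-fold and Gulo by at least 2.52-fold on the pericentral list, and Cdh1 by at least 3.58-fold, G6pc by at least 3.05-fold and Pck1 by at least 2.84-fold on the periportal list.

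**Figure D5:**
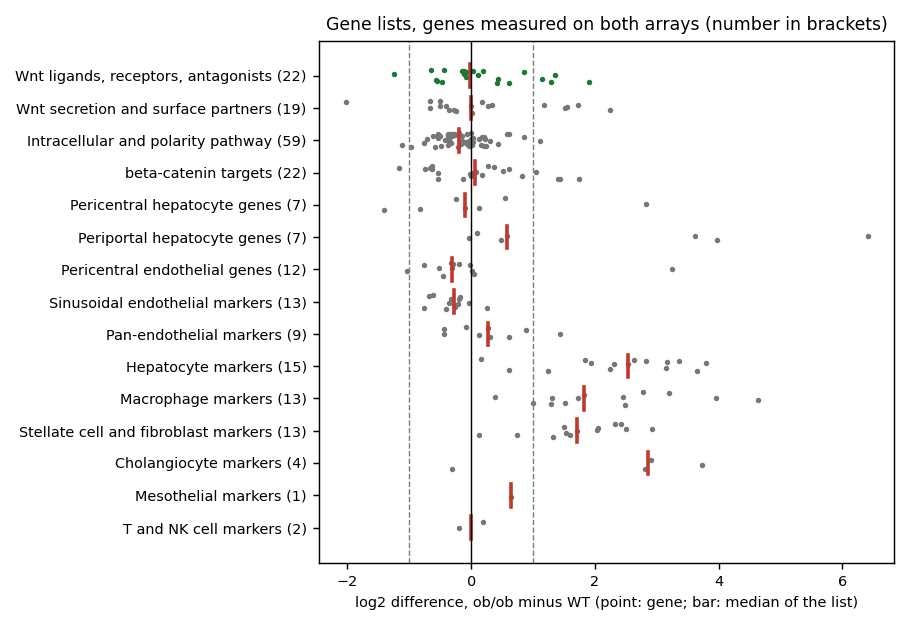
Log2 difference, ob/ob minus WT, of each gene measured on both arrays (points) and the median (red bar) for the Wnt members (green), the other pathway lists and the cell type markers, with dashed lines at 2-fold. The medians of the Wnt lists lie between -0.19 and 0.05, while those of hepatocyte (2.53), macrophage (1.83) and stellate cell (1.71) markers lie beyond 2-fold.

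Most measured markers of stellate cells, macrophages, hepatocytes and cholangiocytes were higher on the ob/ob array than on the WT array. Stellate cell and fibroblast markers were at least 2-fold higher in 11 of 13 measured genes, with a summed scaled signal of 36300 in ob/ob and 9000 in WT LSEC. Dcn alone gave 33200 of that sum in ob/ob and 8000 in WT LSEC. Macrophage markers were higher in 12 of 13, with sums of 162000 in ob/ob and 57000 in WT LSEC, and hepatocyte markers in 13 of 15, with sums of 55200 in ob/ob and 10000 in WT LSEC. Cholangiocyte markers were higher in 3 of 4, with sums of 5470 in ob/ob and 538 in WT LSEC, of which Spp1 alone gave 3900 and 295. Sinusoidal endothelial markers summed to 153000 in ob/ob and 209000 in WT LSEC. All 9 pan-endothelial markers were measured on both arrays, with a median of 0.27, and 1 was at least 2-fold higher, Vwf at 1.44. Among the defining markers Cd163 of macrophages and Msln, Wt1, Upk3b, Upk1b and Lrrn4 of mesothelium were above background on neither array. T and NK cell markers had 2 genes measured on both arrays, Nkg7 at -0.19 and Cd3e at 0.19, and 4 measured in ob/ob alone. Of these Gzmb was brighter in ob/ob by at least 8.8-fold, Cd3d by at least 6.44-fold, Cd3g by at least 2.01-fold and Cd2 by at least 1.2-fold. Stellate cell markers counted as higher numbered 2 after normexp with 75th percentile scaling, and 7 after normexp with quantile normalization, while macrophage markers numbered 12 in both. With either of these settings 0 genes of the secretion and intracellular lists were at least 2-fold higher. The part of these cells in the higher signals of Frzb, Fzd1, Fzd7 and Wnt11 was not tested.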

How the data were processed

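Total RNA of 1 ob/ob and 1 WT LSEC preparation was measured on 1-colour Agilent arrays. The authors deposited 1 linear intensity for every spot. Background and spatial trend had been taken off by Agilent Feature Extraction 11.0.1.1, per the file headers, which also give detection, saturation and outlier flags, design 026655 and mm9 positions. The authors' deposited table of the same arrays holds a ratio, in which each array was divided by its 75th percentile, with column medians of 0.647 for ob/ob and 0.614 for WT. It was set against the scanner files and is on a linear scale, not centred per gene.

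Values are log2 intensity minus log2 of the 75th percentile over the 43020 non-control spots. Spots flagged as outliers were dropped (120 on the ob/ob and 148 on the WT array, 0 of them of members), and 0 non-control spots were saturated. Probes with over 50% of their spots well above background counted as measured, and a gene was represented by its brightest measured probe. A gene measured on 1 array got a lower bound, its signal over the higher of the lowest signal well above background on the other array and its own signal there, and no fold where this was under 1. The bound leaves out the error-model SD and moves with the scaling, so a bound close to 1 is no sure difference. Probes were named by RefSeq accession (26055 of 39429) and otherwise by the file. All 56 member probes matched, and 0 names differed.

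With 1 array per genotype no test or p-value was possible, and precision is limited by the number of arrays. At least 2-fold was the threshold. Member genes above background were all named, and from each other list up to 6 genes at least 2-fold different and up to 4 bounds. Members and lists were chosen with earlier results of these data known. The per-gene code was tested on simulated data. Alternatives changed the scaling, background correction, filter, probe choice, unit or fold. Tools were Python 3.11.15 with numpy 2.4.6, pandas 2.3.3 and statsmodels 0.14.6, and R 4.3.3 with limma 3.58.1.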

Additional observations from a re-analysis of the deposited data

How the results depend on the processing

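The alternatives on flagged spots, bright patches, the filter, the deposited table and the mean over probes could hardly move a member value. No member spot was flagged or in a bright patch, and the deposited table holds the same signal. Only Lrp6 had both probes measured. The counts that follow include these settings. Of 257 values of the 22 measured members under the alternatives, 201 moved by less than their error-model SD, 53 moved by more, and 3 reversed a 2-fold call, all with normexp and the 75th percentile: Frzb -0.33, Fzd7 -0.76 and Wnt11 -1.22. That setting takes off the background anew, from the mean signal and local background of each spot, and adds 50 to each signal before scaling. What in it reversed these calls was not tested. It gave 0 members higher and 8 lower, where 369 and 3827 of all 18147 measured genes were. The median was -0.73 for the members and -0.29 over all genes. Normexp with quantile normalization gave 0 higher and 0 lower, where 510 and 130 of all 18147 measured genes were. The stricter filter, 4 times the lowest signal well above background, kept 15 members, with 1 higher, Fzd1, and 0 lower. Of the 15008 genes that it kept, 647 were higher and 285 lower. Without a filter 8 of 48 were higher and 2 lower, where 2680 and 1635 of 31894 genes were. Scaling on the array median gave a member median of -0.30. At 1.5-fold 2 members were lower, and at 3-fold 1 was higher and 0 lower. In the other settings the counts stayed within 1.5 times and the median within its error. The count measured on 1 array was 4 in each setting where it can be formed. It could not change there, because detection came from the scanner's flag, which scaling and background correction do not touch. Members below background cannot be compared at this signal. No paired analysis was possible because each genotype has 1 array and the labels carry no replicate numbers.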
